A study of Mus musculus with 13 samples.

Results

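Interferon-stimulated genes are the genes that cells switch on when interferon binds its receptor, and a list of 38 of them was followed here by gene symbol in RNA-Seq of mouse embryonic fibroblasts (MEFs), out of 57010 genes listed in the files. Each of the 38 symbols matched 1 gene identifier, 30 of them had enough counts to be tested among 15034 tested genes, and 8 did not (Ddx60, Mx1, Mx2, Oas1a, Oas1b, Oas2, Oas3 and Rsad2). The RNA came from wild-type MEFs in 4 groups of 3 mice, numbered 4, 5 and 6 in each group. Control MEFs were not senescent. Senescent MEFs had received 2 μM etoposide, a topoisomerase II poison that breaks DNA, for 24 h and were then kept for 5 days in medium. The other senescent MEFs were in addition given Fucoidan-FV, a sulfated polysaccharide of brown seaweed, at 100 or 300 μg/mL for 12 h. All of the treated groups thus carry the etoposide exposure, and the control group is the only one without it. Control mouse 5 was sequenced as 2 libraries, which were summed, so the 13 libraries gave 12 samples.

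Type I interferon acts through the receptor chains Ifnar1 and Ifnar2 and the kinases Jak1 and Tyk2, which activate Stat2. Stat2 and Irf9 are subunits of the complex ISGF3, which binds the interferon-stimulated response element (ISRE) in the promoters of its target genes. The targets include sensors of viral nucleic acid, the IFIT proteins that bind foreign RNA ends, the OAS enzymes that start RNA decay, GTPases such as Mx1, and brakes such as Usp18. Senescent cells are known to express parts of this program in some settings, after DNA from the nucleus or from mobile elements reaches the cytosol.

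The promoter letters show which members hold the core letters of the element that ISGF3 binds near a start site. RefSeq promoter windows of 300 bases, from 250 bases before to 50 bases after a start site, were at hand for 27 of the 38 members in build GRCm38.p6. The ISRE core was searched as GAAANNGAAA on both strands (TTTCNNTTTC on the gene's own strand is the same element turned around). It was found in 15 of the 27 members (55.6%), against 3.99% of the 27025 genes with a window. On the gene's own strand alone, 6 members held it, against 2.06% of all genes. The gamma-activated site TTCNNNGAA, an element of interferon gamma targets that reads the same on both strands, was in 6 members (22.2%) and in 9.55% of all genes. A longer ISRE can hold overlapping matches. Variants of the core and elements outside the window were not searched, so a member without a match may still carry an ISRE. Of the 12 members whose values are given mouse by mouse below, 9 had a window and 5 of these held the ISRE letters, while Irf7, Irf9, Xaf1 and Ifi35 did not hold them in this window. The 250 bases before the start site of those 5 are shown because they hold the element in genes whose values are given mouse by mouse, with the ISRE letters in capitals and each read 5′ to 3′ on the gene's strand.
Ifit3, chr19:34583279-34583528, plus strand: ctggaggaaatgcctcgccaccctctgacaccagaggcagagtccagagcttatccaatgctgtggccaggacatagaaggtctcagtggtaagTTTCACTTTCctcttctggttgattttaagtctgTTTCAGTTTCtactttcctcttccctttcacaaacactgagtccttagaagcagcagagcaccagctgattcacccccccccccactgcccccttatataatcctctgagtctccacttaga
Ifit3b, chr19:34607707-34607956, plus strand: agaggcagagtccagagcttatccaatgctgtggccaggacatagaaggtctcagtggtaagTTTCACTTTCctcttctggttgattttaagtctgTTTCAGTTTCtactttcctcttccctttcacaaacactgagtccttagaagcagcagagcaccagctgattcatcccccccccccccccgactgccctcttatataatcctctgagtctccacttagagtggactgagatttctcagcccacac
Isg15, chr4:156200819-156201068, minus strand: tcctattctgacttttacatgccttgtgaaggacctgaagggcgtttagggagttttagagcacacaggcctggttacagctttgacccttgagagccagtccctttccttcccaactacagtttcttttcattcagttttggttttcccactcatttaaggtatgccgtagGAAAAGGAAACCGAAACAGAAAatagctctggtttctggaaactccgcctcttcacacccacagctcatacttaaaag
Trim30a, chr7:104465194-104465443, minus strand: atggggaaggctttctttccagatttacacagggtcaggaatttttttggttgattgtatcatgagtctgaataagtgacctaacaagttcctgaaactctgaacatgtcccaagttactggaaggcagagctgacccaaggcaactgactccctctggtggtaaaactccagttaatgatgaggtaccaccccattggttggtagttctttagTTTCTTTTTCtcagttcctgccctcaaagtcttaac
Stat2, chr10:128270248-128270497, plus strand: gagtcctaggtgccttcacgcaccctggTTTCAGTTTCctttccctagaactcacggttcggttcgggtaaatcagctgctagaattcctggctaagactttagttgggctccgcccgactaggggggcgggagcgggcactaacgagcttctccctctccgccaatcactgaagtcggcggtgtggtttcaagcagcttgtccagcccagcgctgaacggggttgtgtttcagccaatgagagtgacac
Ifit3 and Ifit3b are neighbouring copies, and their stretches share a run of 169 bases with the same pair of ISRE matches, which begin 156 and 122 bases before the start site in Ifit3 and 188 and 154 bases before it in Ifit3b. Isg15 has overlapping matches beginning 78 bases before its start site, Trim30a has 1 match at 36 bases and Stat2 has 1 match at 222 bases. These matches describe letters, and no binding was measured.

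Total counts were between 22782536 and 31278750 per library. Genes with a count ranged from 14774 in control mouse 6 to 21049 in Fucoidan-FV 100 μg/mL mouse 4, and 19 and 36 members had a count there. Control library 5(1) had a count for 15559 genes and 22 members, and library 5(2) for 18497 genes and 33 members. A count of 0 in control mouse 6 cannot tell a silent gene from one that was poorly detected. Cdkn1a, the p21 cell cycle inhibitor that marks senescent cells, was at 468 ± 83.2 CPM (read counts scaled to library size by TMM factors, SD, n = 3) in control and 1652 ± 187 CPM in senescent MEFs (log2 fold change 1.82, SE 0.18, edgeR adjusted p = 6.8e-05). Libraries also differed in how the counts were spread over kinds of genes. Genes annotated with 1 transcript lay below their mean level in control library 5(1), control mouse 6, senescent mouse 5 and Fucoidan-FV 300 μg/mL mouse 4, with medians from −0.735 to −0.526 on the log2 scale, and reached 0.713 above it in Fucoidan-FV 100 μg/mL mouse 5. The 4 tested members with 1 transcript (Ifit1, Ifit3, Ifit3b and Isg15) are of this kind, so calls were also made without those 4 libraries. Calls were made as well with offsets for single-transcript sequence, the share of a gene's exon bases that lie in only 1 transcript. Members with several transcripts differ in it, with Trim30a at 89.6%, Ifit2 at 87% and Gbp7 at 0.317%. The MEF label fits the fibroblast markers, whose summed level was between 13860 and 21980 TPM (the length-scaled expression values of RSEM). The endothelial markers summed to at most 6.52 TPM and the epithelial markers to at most 2.38 TPM, while skeletal muscle markers summed to between 22.3 and 187 TPM and neural markers to between 47.5 and 126 TPM.

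In control MEFs the interferon-stimulated genes were mostly near silent. On the TPM scale, which is per transcript length and library size and so allows levels of different genes to be set side by side, 23 of the 38 members had a control mean under 1 TPM and 6 had a mean over 5 TPM. The highest level was that of Ifi27, a small mitochondrial membrane protein, at 77.8 TPM in control and 281 TPM in senescent MEFs. Irf1, a transcription factor induced by interferon gamma, followed in control MEFs at 19.6 TPM, and then Trim25, a ubiquitin ligase that activates the RNA sensor RIG-I, at 8.57 TPM. Ifi35, Irf9 and Bst2 stood at 7.77, 7.09 and 5.66 TPM in control and at 18.4, 13.5 and 16.3 TPM in senescent MEFs. At the other end, Ifit1, Ifit3, Ifit3b, Usp18 and Trim30a had control means between 0.0150 and 0.103 TPM. The tests for these genes thus rested on few reads, and 5 to 14 counts were found for Ifit3b, Ifit3, Usp18 and Ifit1 over the 3 control mice. RNA of bulk cultures cannot tell fewer expressing cells from less RNA per cell.

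Senescent MEFs had more RNA of the interferon-stimulated genes than control MEFs. Of the 30 tested members, 27 had a higher and 3 (Irf1, Trim25 and Parp14) a lower fitted level. The median log2 fold change was 1.61, against 0.072 over all genes tested. A gene was called where its adjusted p was under 0.05 and its absolute log2 fold change over 1. By edgeR's quasi-likelihood test 6 members rose (Irf7, Rtp4, Xaf1, Ifit3, Ifit3b and Ifi27), which is 20.0% of those tested, and 4.47% of all genes were called higher. Of the tested members, 7 (Ifit3 and Ifit3b among them) had under 10 counts in every control mouse. These could pass the filter on low counts only through other groups, where they had to be higher. Rtp4 and Xaf1 had 0 counts in control mouse 6, so they too could not pass through the 3 control mice alone. The shares and medians of members against control MEFs are therefore descriptions. With at least 10 counts required in every sample, 15 members were tested, their median log2 fold change was 0.50 and 2 rose (Irf7 and Ifi27), against 4.55% of all genes tested. None was called lower by edgeR or DESeq2, and 0 members were lower at an unadjusted edgeR p under 0.05. In 14 members (46.7%) every senescent mouse was above every control mouse, against 14.2% of all genes. Irf1 was the single member with every senescent mouse below every control mouse. The map of deviations shows this as a change of colour at the border between control and senescent samples.

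**Figure D1:**
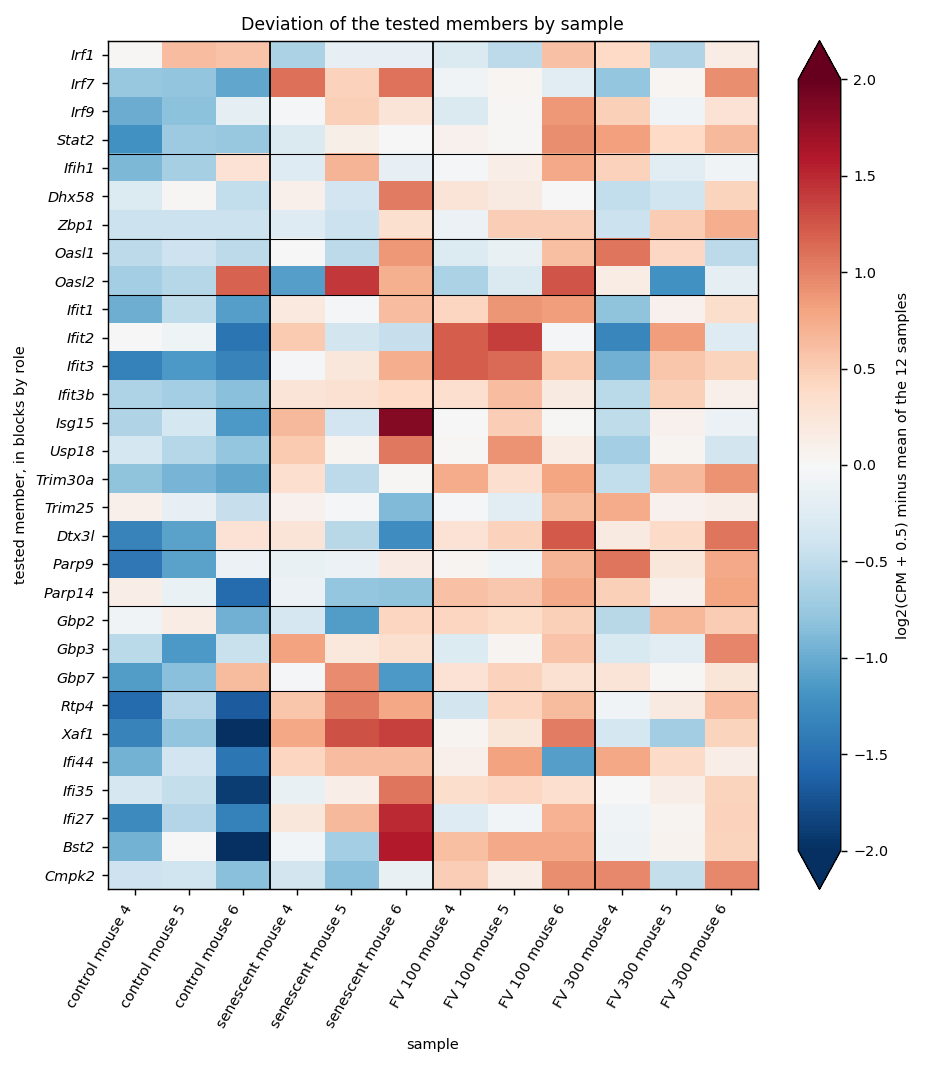
Deviation of the 30 tested members (rows, in blocks by role) in each of the 12 samples (columns, mice 4, 5 and 6 of each group), as log2(CPM + 0.5) minus the gene's mean over the samples, with red above and blue below that mean and the colour scale ending at 2 in either direction. The control columns are mostly blue, and the senescent and both Fucoidan-FV blocks are mostly pale or red, with Irf1 as an exception.

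The transcription factors come first in the pathway. Irf7, the factor that amplifies type I interferon responses (chr7:140842619-140846398, GRCm39), was at 1.15, 1.10 and 0.846 CPM in control mice 4, 5 and 6 and at 5.43, 3.32 and 5.40 CPM in senescent mice. The groups did not overlap, and Irf7 rose (log2 fold change 2.19, SE 0.56, edgeR adjusted p = 0.0220). Stat2 (chr10:128106352-128128735) was at 8.97, 12.6 and 12.4 CPM in control and 17.3, 23.2 and 21.2 CPM in senescent mice. Irf9 (chr14:55841028-55847812), the DNA-binding part of ISGF3, was at 9.35, 10.6 and 16.8 CPM in control and 18.8, 27.0 and 22.9 CPM in senescent mice. Neither of these ISGF3 subunits overlapped between the groups and neither was called, with log2 fold changes of 0.86 (edgeR adjusted p = 0.0703) and 0.90 (edgeR adjusted p = 0.109). Irf1 was at 14.3, 21.9 and 21.2 CPM in control and at 8.92, 12.5 and 12.5 CPM in senescent mice (log2 fold change −0.75, edgeR adjusted p = 0.215). Exons of other genes on the opposite strand cover 46.0% of the Irf1 exon bases. The library kit marks strand, and the strand setting of the counting was not given in the sources used here.

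The IFIT genes lie in 1 cluster (chr19:34527932-34632174, GRCm39) and were the family with the highest median, at a log2 fold change of 3.14 over its 4 members. Ifit3 was at 0.0850, 0.177 and 0.0940 CPM in control and at 0.959, 1.25 and 1.97 CPM in senescent mice. Ifit3b was at 0.0850, 0.0589 and 0 CPM in control and at 0.575, 0.604 and 0.680 CPM in senescent mice. Senescent mice were several times above every control mouse in both genes. Ifit3 rose by a log2 fold change of 3.45 (SE 0.82, edgeR adjusted p = 0.0153) and Ifit3b by 3.52 (SE 1.06, edgeR adjusted p = 0.0471). The call for Ifit3b was lost with mouse number as a replicate block (adjusted p = 0.0756). Of the windows of 100 bases in their transcripts, 16.7% of Ifit3 and 27.2% of Ifit3b occur in the other copy, so that reads could be split between them. Ifit1 had a log2 fold change of 2.83 and Ifit2 of 0.40, and edgeR called neither, while DESeq2 called Ifit1 (adjusted p = 0.0374).

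Among the effectors with other roles, Ifi27, Xaf1 and Rtp4 rose. Ifi27 (chr12:103392254-103407799, GRCm39) was at 21.1, 34.3 and 20.0 CPM in control and at 60.5, 81.3 and 146 CPM in senescent mice, a log2 fold change of 1.93 (SE 0.36, edgeR adjusted p = 0.00363). It has the smallest p of the members and stayed called in all 24 alternative fits. Xaf1, a protein that counters the apoptosis inhibitor XIAP (chr11:72192397-72204559), was at 0.298, 0.667 and 0 CPM in control and at 2.94, 4.35 and 4.72 CPM in senescent mice. Rtp4, a receptor-trafficking protein induced by interferon (chr16:23337811-23432972), was at 0.0425, 0.550 and 0 CPM in control and at 1.82, 2.76 and 2.21 CPM in senescent mice. For both genes the highest control mouse was mouse 5, and it was still below the lowest senescent mouse. Libraries 5(1) and 5(2) of control mouse 5 held 1 and 33 counts of Xaf1, and 20 and 8 counts of Rtp4. Their log2 fold changes were 3.54 for Xaf1 (SE 0.91, edgeR adjusted p = 0.0226) and 3.35 for Rtp4 (SE 1.01, edgeR adjusted p = 0.0472). The annotated gene Gm45338 shares 24.9% of the 100-base windows of Rtp4. Ifi35, a leucine zipper protein that pairs with Nmi (chr11:101339221-101352693), was at 8.16, 7.36 and 2.44 CPM in control and 9.43, 11.5 and 22.5 CPM in senescent mice, and was not called (log2 fold change 1.27, edgeR adjusted p = 0.0768).

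Isg15 and its partners gave large fold changes with wide errors. Isg15, the ubiquitin-like protein that is joined to other proteins (chr4:156283883-156285303, GRCm39), was at 0.298, 0.452 and 0.0470 CPM in control and at 1.41, 0.431 and 3.81 CPM in senescent mice. Senescent mouse 5 was below control mouse 5, so the groups overlapped. Control mouse 5 had 3 counts of Isg15 in library 5(1) and 20 in library 5(2). Usp18, which removes Isg15 and holds back the receptor (chr6:121222848-121247877), was at 0.170, 0.0785 and 0 CPM in control and at 0.735, 0.388 and 1.29 CPM in senescent mice. Trim30a, a ubiquitin ligase that dampens Toll-like receptor signaling (chr7:104058232-104114407), was at 0.0850, 0.0393 and 0 CPM in control and 0.799, 0.216 and 0.544 CPM in senescent mice. The groups of these last genes did not overlap, but the senescent mice differed among themselves by a multiple. Fitted log2 fold changes were 2.76 for Isg15 (edgeR adjusted p = 0.0811), 3.21 for Usp18 (edgeR adjusted p = 0.0993) and 3.51 for Trim30a (edgeR adjusted p = 0.0535). None of the 3 was called by edgeR, and DESeq2 called all of them, with adjusted p of 0.0178, 0.0335 and 0.0127.

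**Figure D2:**
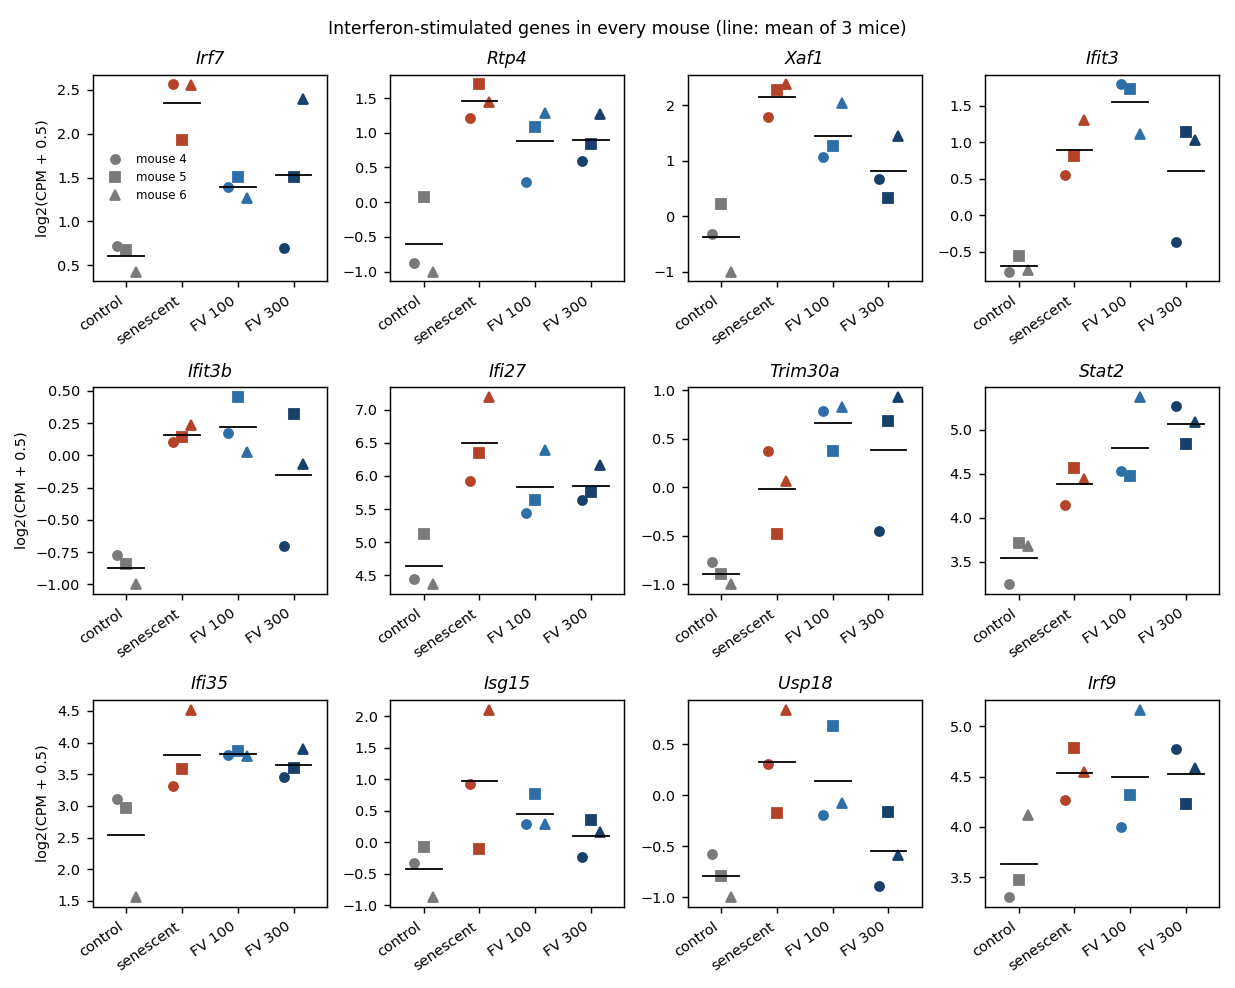
CPM of 12 members in every mouse, as log2(CPM + 0.5) on the vertical axis, with the 4 groups side by side (FV 100 and FV 300 are Fucoidan-FV at 100 and 300 μg/mL), mice 4, 5 and 6 as circles, squares and triangles, and the mean of each group's 3 mice as a line. In 11 of the 12 panels every senescent mouse lies above every control mouse, and Isg15 is the exception.

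The remaining roles held no called member. The nucleic acid sensors Ifih1, Dhx58 and Zbp1 had log2 fold changes of 0.52, 1.91 and 5.02. Zbp1, which binds Z-form nucleic acid, had no count in any control mouse and 12 counts in senescent mice, at least 4.56-fold higher against a floor of 3 counts over the control group, and its fitted value is no bound. With Zbp1 at that bound the median of the 30 members was again 1.61. Oasl1, a repressor of Irf7 translation, had 2 counts in control and 31 in senescent mice, a ratio of 17.7 with a counting interval of 4.5 to 152. Senescent mouse 6 held 24 of these 31 counts of Oasl1 and 10 of the 12 of Zbp1, and senescent mouse 5 held 0 of either. The GTPases Gbp2, Gbp3 and Gbp7 had log2 fold changes between 0.01 and 1.56, and the ADP-ribosylation enzymes Parp9 and Parp14 of 0.78 and −0.31.

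The 8 members that were too low to test include several that are used as standard interferon reporters. Their highest count in any library was 18, and their totals over the 13 libraries were between 13 and 63.4 counts. Rsad2 (viperin) had 0, 2, 14 and 11 counts over the mice of the control, senescent, Fucoidan-FV 100 and 300 μg/mL groups, and Mx1 had 4, 0, 3 and 6. Oas2 had 0 counts in control and 7 in senescent mice, at least 2.66-fold higher, and Ddx60 had 3 and 26 counts, a ratio of 9.89 with a counting interval of 3.03 to 51.0. Of the 26 senescent counts of Ddx60, 18 were in mouse 5. Floors and intervals cover counting error only.

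The count of called members depended on the filter, the groups fitted, the tool and single mice. It was 2 with at least 10 counts in every sample, as given above, and 1 when only the 2 groups compared were fitted. DESeq2 called 11 members in senescent against control MEFs, the 6 named above and Ifi35, Usp18, Trim30a, Ifit1 and Isg15. The share of all genes that DESeq2 called is not given here, so this larger count has no background beside it. Leaving out control mouse 4 left 1 called member and leaving out senescent mouse 4 left 3, and with only library 5(2) for control mouse 5 there were 3. Ifi27 was called in each of the 12 fits that leave out a mouse, Xaf1 and Ifit3 in 11, Irf7 in 8, and Rtp4 and Ifit3b in 1 each. The direction was steadier than the calls. It is a description, because some members passed the filter on low counts only through groups other than control. Compared within each mouse number, the median difference of the members on the log2(CPM + 0.5) scale was 0.896, 0.612 and 1.15 in mice 4, 5 and 6, against 0.012, −0.047 and 0.18 over all genes. The 26 tested members with several transcripts had a median log2 fold change of 1.08 and the 4 with 1 transcript 3.14. With offsets for single-transcript sequence these were 1.08 and 3.23. With these offsets Isg15 and Trim30a were called as well (edgeR adjusted p = 0.0233 and 0.0192). Without the 4 libraries that were lowest in genes with 1 transcript, 3 members were called (Irf7, Rtp4 and Ifi27).

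**Figure D3:**
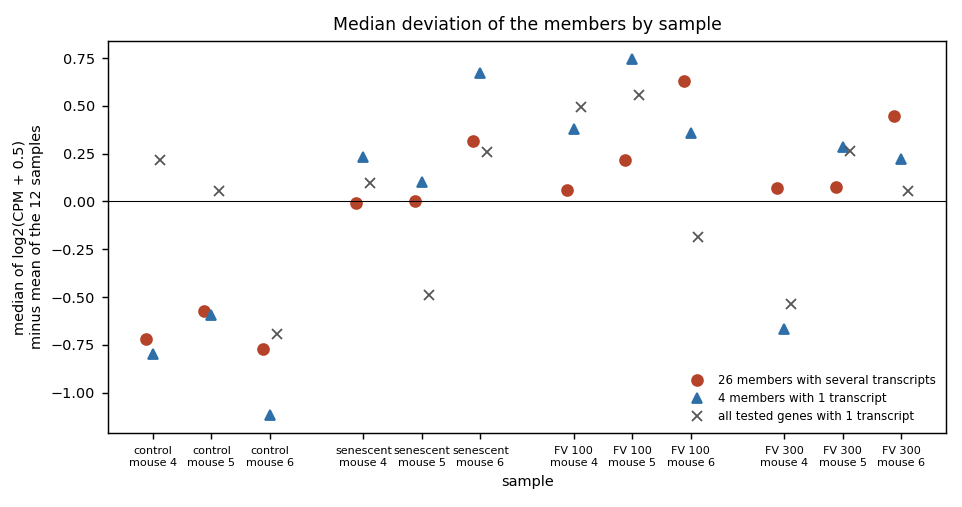
Median over the tested members of log2(CPM + 0.5) minus each gene's mean over the 12 samples, for the 26 members with several transcripts (circles) and the 4 with 1 transcript (triangles), beside all tested genes with 1 transcript (crosses), by sample. The circles are lowest in the 3 control mice, where the crosses run from −0.691 to 0.215. The triangles are below 0 in the 3 control mice and in Fucoidan-FV 300 μg/mL mouse 4, which at −0.669 lies below control mouse 5 at −0.593.

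Fucoidan-FV at 100 μg/mL left the interferon-stimulated genes without a called change against untreated senescent MEFs. Of the 30 tested members, 18 were higher and 12 lower, with a median log2 fold change of 0.15 against −0.019 over all genes. No member was called by edgeR, none had an unadjusted p under 0.05, and 2.69% of all genes were called in either direction. DESeq2 gave an adjusted p for 24 of the 30 (none for Ifit3b, Usp18, Oasl1, Dhx58, Zbp1 and Cmpk2) and called none of these 24, with 3 of the 30 members at an unadjusted p under 0.05. Both Fucoidan-FV comparisons use the same 3 senescent mice. Of the members, 3 (10%) lay wholly above the senescent mice, against 11.2% of all genes, and 1 wholly below, against 15% of all genes. These 4 are named because they were the few that did not overlap, so they were chosen after their values were seen. Irf7 was at 2.13, 2.35 and 1.90 CPM with Fucoidan-FV, below all 3 senescent mice (log2 fold change −1.15, SE 0.54, edgeR adjusted p = 0.255). Parp14, a mono-ADP-ribosyltransferase, was at 0.959, 0.431 and 0.408 CPM in senescent mice and at 1.88, 1.82 and 2.18 CPM with Fucoidan-FV. Dtx3l, the ubiquitin ligase that partners Parp9, was at 5.62, 2.97 and 1.67 CPM in senescent mice and at 5.76, 6.55 and 11.5 CPM with Fucoidan-FV. The third was Cmpk2, a mitochondrial nucleotide kinase next to Rsad2, with 15 counts in senescent and 72 with Fucoidan-FV. Their log2 fold changes were 1.70, 1.21 and 2.25, with edgeR adjusted p of 0.289, 0.268 and 0.344.

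Fucoidan-FV at 300 μg/mL gave no called member either. There were 13 members higher and 17 lower than in senescent MEFs, and the median log2 fold change was −0.11 against 0.00027 over all genes. By edgeR 1 member (Stat2) had an unadjusted p under 0.05, and by DESeq2 3 had. Neither tool called any, though DESeq2 gave no adjusted p for Dhx58 and Zbp1, while edgeR called 1.64% of all genes. Stat2 was at 38, 28.1 and 33.6 CPM, above all 3 senescent mice (log2 fold change 0.69, SE 0.28, edgeR adjusted p = 0.254). Stat2, Parp9 and Parp14 were the 3 tested members (10%) wholly above the senescent mice, against 9.41% of all genes. Xaf1 was the 1 tested member wholly below them, against 10.2% of all genes, at 1.09, 0.747 and 2.24 CPM (log2 fold change −1.56, edgeR adjusted p = 0.412). Parp9, Dtx3l and Parp14 lie side by side (chr16:35653231-35792980, GRCm39), and Parp9 and Dtx3l share exon bases on opposite strands, 9.12% of those of Parp9 and 8% of those of Dtx3l.

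All 6 members that rose in senescence had a mean above the control mean at both doses. These 6 were chosen for high values in the same 3 senescent mice that Fucoidan-FV is compared with, so their place against the senescent mean is a description and supports no fall. Ifi27 was at 43.0, 49.4 and 83.6 CPM with 100 μg/mL and at 49.4, 53.6 and 71.5 CPM with 300 μg/mL. In each mouse this was below the senescent value of the same number, with log2 fold changes of −0.71 and −0.72 (edgeR adjusted p = 0.278 and 0.344). Irf7, Rtp4 and Xaf1 were likewise lower in 3 of 3 mice at each dose without being called. Over the 30 tested members, 9 were higher and 4 lower in 3 of 3 mice at 100 μg/mL, against 18.7% and 23.2% of all genes, and 5 were higher and 5 lower at 300 μg/mL, against 14.8% and 15.6% of all genes. Ifit3 was at 2.97, 2.80 and 1.66 CPM with 100 μg/mL and at 0.271, 1.71 and 1.54 CPM with 300 μg/mL, so that mouse 4 stood apart from the other mice at the higher dose. That library was among the 4 that were low in genes with 1 transcript. All 4 IFIT genes had a positive log2 fold change at 100 μg/mL (0.12 to 1.09). Tested genes with 1 transcript had a median of 0.397 there. With offsets the values were 0.14 for Ifit1, 0.62 for Ifit2, 0.05 for Ifit3 and −0.67 for Ifit3b. The median of the 4 members with 1 transcript (Ifit1, Ifit3, Ifit3b and Isg15) went from 0.38 to −0.31. The part of this library difference in the IFIT values beyond these offsets was not tested. Isg15 had log2 fold changes of −1.09 and −1.68 and Usp18 of −0.33 and −1.99 at 100 and 300 μg/mL, none of them called.

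The limits of these comparisons are wide. The 95% interval of the log2 fold change stayed between −1 and 1 for 2 members at 100 μg/mL (Irf9 and Ifi35) and for 2 at 300 μg/mL (Irf9 and Ifih1). For the other 28 tested members at each dose, a change over the threshold in at least 1 direction lay within the interval. The plot of fold changes shows these intervals beside those of senescent against control MEFs.

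**Figure D4:**
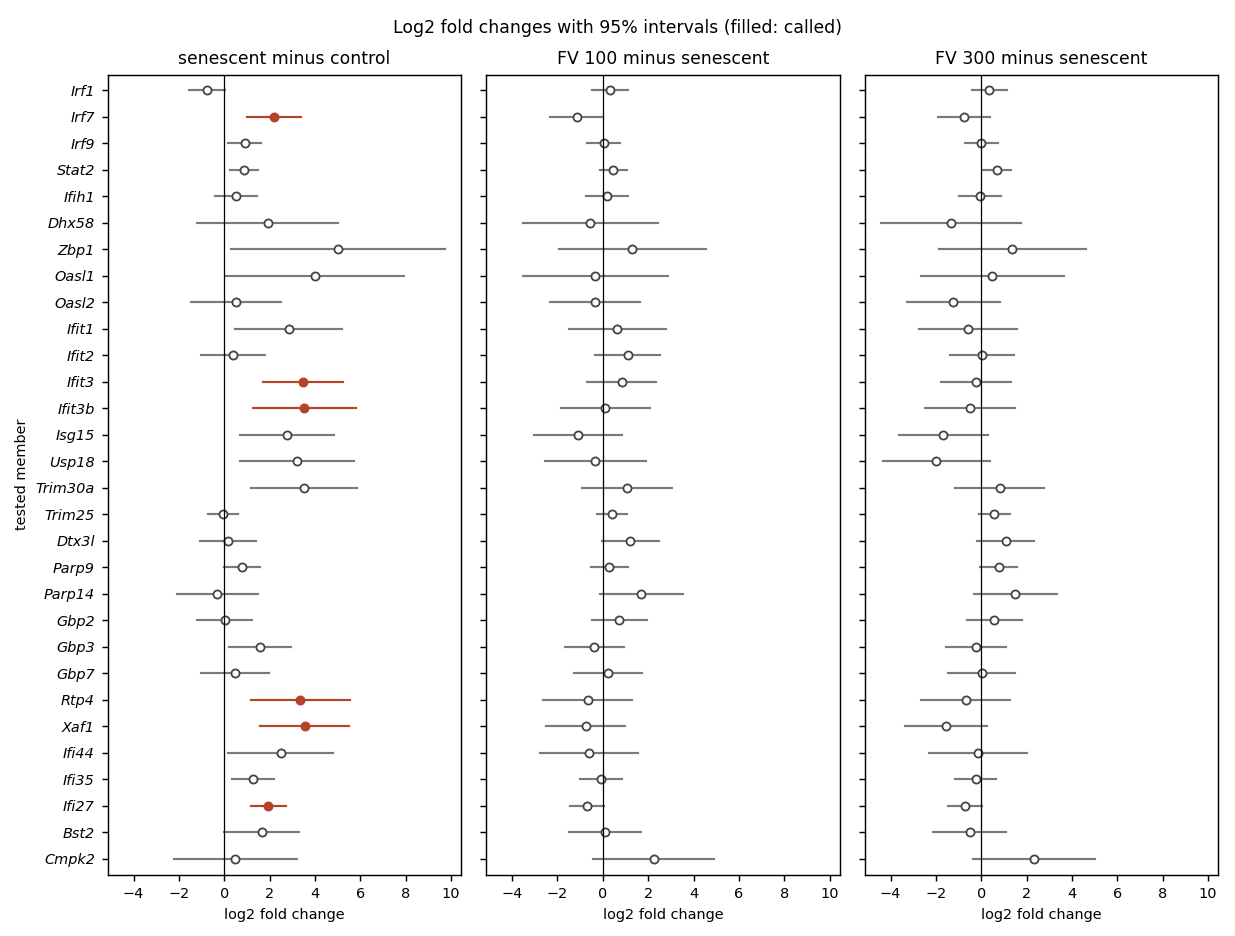
Log2 fold change (horizontal axis) with its 95% interval for the 30 tested members in senescent minus control, Fucoidan-FV 100 μg/mL minus senescent and Fucoidan-FV 300 μg/mL minus senescent MEFs, with called members filled. The 6 filled points are all in the left panel, and 30 of 30 intervals in the middle and 29 of 30 in the right panel include 0.

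The 2 doses were also compared with each other. No member was called by edgeR or DESeq2 and none had an unadjusted p under 0.05 by either, and edgeR called 0.00665% of all genes (1 gene). With 300 μg/mL 10 members were higher and 20 lower than with 100 μg/mL, at a median log2 fold change of −0.16 against 0.075 over all genes. The IFIT genes were all lower at the higher dose (−1.23 to −0.60), where tested genes with 1 transcript had a median of −0.626.

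Against control MEFs, the interferon-stimulated genes were higher with Fucoidan-FV too. The same 3 control mice serve here as for untreated senescent MEFs. With 100 μg/mL 29 of 30 members were higher, at a median log2 fold change of 1.38, and 8 rose (Ifi27, Ifit1, Ifit3, Ifit3b, Stat2, Trim30a, Xaf1 and Zbp1), which is 26.7%, against 10.3% of all genes called higher. With 300 μg/mL 28 were higher, at a median of 1.23, and 5 rose (Ifi27, Ifit3, Parp9, Stat2 and Trim30a), which is 16.7%, against 9.87% of all genes. Of these, Ifit3, Ifit3b, Trim30a and Zbp1 at 100 μg/mL and Ifit3 and Trim30a at 300 μg/mL had under 10 counts in every control mouse. Ifit1 and Xaf1, called at 100 μg/mL, had 0 counts in control mouse 6. They too could not pass the filter on low counts through the 3 control mice alone, so the shares are descriptions. With at least 10 counts in every sample, 5 of 15 members rose at 100 μg/mL, against 10.5% of all genes tested, and 4 at 300 μg/mL, against 9.59%. Stat2 rose by a log2 fold change of 1.33 (SE 0.29, edgeR adjusted p = 0.00421) and 1.55 (SE 0.29, edgeR adjusted p = 0.00176). Trim30a was at 1.22, 0.795 and 1.28 CPM and at 0.233, 1.10 and 1.41 CPM at the 2 doses. It rose by 4.58 (SE 1.12, edgeR adjusted p = 0.00856) and 4.32 (SE 1.11, edgeR adjusted p = 0.0123). Parp9, named for its call here after its values were seen, was at 4.72, 6.22 and 12.5 CPM in control and at 29.1, 15.9 and 23.3 CPM with 300 μg/mL (log2 fold change 1.55, SE 0.38, edgeR adjusted p = 0.00990). Zbp1 had 29 and 28 counts with Fucoidan-FV, at least 10.6-fold and 11.5-fold higher than in control mice. With mouse number as a replicate block, the calls of Xaf1 and Zbp1 at 100 μg/mL were lost (adjusted p = 0.0647 and 0.0581). Leaving out a Fucoidan-FV 100 μg/mL mouse left 5, 4 and 3 called members without mice 4, 5 and 6, and leaving out Fucoidan-FV 300 μg/mL mouse 4 raised the 5 called members to 8. Without the 4 libraries low in genes with 1 transcript, 8 and 7 members were called at the 2 doses, and Ifi27 was not among them.

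Transcripts of interferon itself were at or near 0. None of 13 interferon genes passed the filter, and 9 of them, Ifnb1 among them, had no count in any of the 13 libraries. A count of 0 over the 3 senescent mice allows up to 0.0357 CPM. Ifnz had 3, 5, 20 and 18 counts in control, senescent, Fucoidan-FV 100 and 300 μg/mL MEFs. The receptors were expressed in every group, with Ifnar1 at 95.1 ± 10.9 CPM (SD, n = 3) in control and 86.4 ± 13.6 CPM in senescent mice, and Ifnar2 at 36.4 ± 7.06 and 36.5 ± 7.21 CPM. Of 9 receptor and JAK kinase genes, none was called by edgeR or DESeq2 in senescent against control MEFs or at 100 or 300 μg/mL against senescent MEFs, and 1, 4 and 1 had an unadjusted edgeR p under 0.05. Against control MEFs each tool called 1 of the 9 higher at 100 μg/mL (Ifnlr1 by DESeq2) and none at 300 μg/mL.

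Of the 11 transcription factors and brakes outside the list, 1 fell in senescent MEFs and none rose. This was Irf5, a factor of Toll-like receptor signaling, at 23.9, 25.5 and 21.8 CPM in control and 8.09, 3.97 and 10.4 CPM in senescent mice (log2 fold change −1.66, SE 0.42, edgeR adjusted p = 0.0217). Against senescent MEFs edgeR called none of the 11 at either dose, and DESeq2 called 2 at 100 μg/mL (Irf5 and Socs3, 1 higher and 1 lower). No upstream sensor or adaptor of 10 was called by edgeR in senescent against control MEFs, 3 had an unadjusted p under 0.05, and DESeq2 called 1, Cgas, which was lower. Against senescent MEFs edgeR called none of the 10 at either dose, and DESeq2 called 1 (Tlr3) higher at 300 μg/mL. At each dose against control MEFs, edgeR called 3 of the 10 higher and 1 lower. Among 50 further interferon-stimulated genes, 42 were tested, at a median log2 fold change of 0.64 in senescent against control MEFs. Of these, 33 were higher, 4 rose and none was called lower by edgeR. Over all genes tested, 54.2% were higher and 4.47% were called higher. There were 4 that were lower at an unadjusted edgeR p under 0.05, and DESeq2 called 10 of the 42, of which 9 were higher and 1, Slfn9, was lower. The 4 that rose were Lgals3bp, a secreted galectin-binding protein (2.02, edgeR adjusted p = 0.000204), the immunity-related GTPases Irgm2 (2.49, edgeR adjusted p = 0.0103) and Tgtp1 (3.27, edgeR adjusted p = 0.0389), and Nlrc5, the activator of MHC class I genes. Nlrc5 had 2 counts in control and 71 in senescent mice, a ratio of 40.5 with a counting interval of 10.8 to 341 (edgeR adjusted p = 0.00905). It could pass the filter on low counts only through groups other than control, so the counts over these genes are descriptions. Tgtp1 has a close copy, Tgtp2, and reads could be split between them. None of these 42 genes was called by edgeR against senescent MEFs, with 7 and 5 at an unadjusted p under 0.05 at 100 and 300 μg/mL. DESeq2 called 4 (Eif2ak2, Gbp6, Tgtp1 and Slfn5) and 3 (Tgtp1, Ifi207 and Slfn5) of them, of which Ifi207 was lower and the rest higher, and these are named after their values were seen. Against control MEFs edgeR called 13 and 11 of the 42 higher at the same doses, and 1 lower at each. Over all genes tested, 10.3% and 9.87% were called higher in these comparisons.

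Macrophages respond strongly to interferon, so their markers were set beside the members. The 10 macrophage markers summed to between 0.26 and 5.20 TPM in control mice, 2.68 and 13.6 TPM in senescent mice, 8.40 and 21.9 TPM with Fucoidan-FV 100 μg/mL and 10.5 and 21.3 TPM with 300 μg/mL. All 9 tested markers were higher in senescent than in control MEFs, at a median log2 fold change of 2.13. Over all genes tested, 54.2% were higher in this comparison and the median was 0.072. None was called by edgeR, 3 had an unadjusted p under 0.05, and DESeq2 called 1 (Tyrobp). Against control MEFs edgeR called Lyz2 higher at both doses (log2 fold changes 3.39 and 3.15, adjusted p = 0.0158 and 0.0235) and Tyrobp higher at 300 μg/mL (5.58, adjusted p = 0.0486). DESeq2 called 3 (Ptprc, Lyz2 and Tyrobp) and 2 (Lyz2 and Tyrobp) in these comparisons. By edgeR, 10.3% and 9.87% of all genes tested were called higher there. Markers that were low in control mice may have passed the filter on low counts only through other groups, so these counts are descriptions. No marker was at 0 in every library. Ptprc (CD45) had at most 30 counts in any library. The part of these cells in the values of the interferon-stimulated genes was not tested.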

How the data were processed

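Per the labels and the study's methods, total RNA was made into stranded libraries, and the authors trimmed the reads with Trimmomatic, aligned them to mouse GRCm39 with STAR 2.7.11b and estimated expression with RSEM 1.3.1. The authors deposited RSEM expected counts per gene, without normalization, and TPM values, normalized by RSEM for length and library size. TPM values served only to set levels of different genes side by side. Expected counts were rounded and libraries 5(1) and 5(2) summed (chi-square per gene between them 150, and 53.9 to 159 between other control libraries). Low genes were removed with filterByExpr at its defaults (a count of 10, and 15 in total). R 4.3.3 and edgeR 4.0.16 fitted the 4 groups at once with TMM factors and tested 6 comparisons, adjusted by Benjamini-Hochberg over 15034 genes. The alternatives were DESeq2 1.42.0, other scaling, filters, sample sets and offsets. CPM values use TMM factors. Mouse-by-mouse values are given for each member called between senescent and control MEFs or at either dose against senescent MEFs, filled up to 12 by the smallest unadjusted p. The members and lists were chosen with earlier results of these data known. Mouse numbers in the labels pair the samples. Over 18 pairs of same-numbered samples, deviations correlated at a median r of −0.00625 (−0.204 to 0.425), with 8 pairs over 0.1. P-values measure the spread of the 12 samples around their group means, with 3 mice per group, in a fit without pairing by mouse number. This spread mixes differences between mice with differences between libraries, as the chi-square between libraries 5(1) and 5(2) shows. The edgeR code was tested on simulated data.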

Additional observations from a re-analysis of the deposited data

How the results depend on the processing

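The number of called members was 6 in senescent against control MEFs, 8 with Fucoidan-FV 100 μg/mL against control and 5 with 300 μg/mL against control. DESeq2 gave 11, 16 and 11. A filter of at least 10 counts in every sample gave 2 in the first comparison and 5 in the second. Fitting only the groups compared gave 1 in the first and 3 in the third. Library 5(2) alone for control mouse 5 gave 3 in the first, and library 5(1) alone gave 8 in the third. Leaving out each mouse in turn gave 1 to 6, 3 to 11 and 4 to 8. Leaving out the 4 libraries lowest in genes with 1 transcript, an alternative chosen after seeing the data, gave 3 in the first. With mouse number as a replicate block the counts were 5, 7 and 5, the calls of Ifit3b (senescent against control) and of Xaf1 and Zbp1 (100 μg/mL against control) were lost, and no other call of a member was lost. The block together with offsets for single-transcript sequence gave 8 in the third comparison. Offsets alone gave 8, 12 and 7. For DESeq2 and the fits with offsets, the shares of all genes called are not given, so their counts of members have no background beside them. The cause of these differences was not tested. Over the 19 called pairs of a member and a comparison, 441 alternative fits gave 358 calls, 83 losses and 0 reversals. At either dose against senescent MEFs, and between the doses, 0 members were called in each of the 24 alternative settings, though DESeq2 gave no adjusted p for 6 members at 100 μg/mL and 2 at 300 μg/mL against senescent MEFs. Low counts of most members limit these tests.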
